A study of Mus musculus with 20 samples.

Results

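Testes taken 8 h after heat, the earliest heated time of the series, were compared with unheated testes in 2 inbred mouse strains, AKR/N and C57BL/6. The comparison holds 8 of the 20 arrays: 4 from heated testes at 8 h, 2 in each strain, and 4 from untreated controls, 2 in each strain. Per the labels, the heat was 43 °C for 15 min and the mice were 8 weeks old. The other 12 arrays come from testes at 10, 12 and 24 h and were used for the estimate of spread and for the later values. Total RNA of the whole testis was hybridised to Affymetrix mouse expression arrays, whose values are probe-set signals on a linear scale. All changes are differences of group means on the scale log2(signal + 16), so a difference of 1 is a doubling of signal + 16 and low genes are understated. The question was which genes had moved by 8 h, and which of them moved in both strains. Controls carry no sampling time in the labels, so heat and time of sampling cannot be told apart. Whether replicate arrays stand for different mice is not stated in the labels, so p-values measure the spread between these arrays, which may be technical.

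Heat unfolds proteins, and cells answer by transcribing genes for chaperones, which hold unfolded proteins in solution (small heat shock proteins), refold them with ATP (HSP70 with its DNAJ and HSP110 partners) or enclose them in a chamber (the chaperonin of mitochondria). Heat shock factors drive these genes from promoter sites, the heat shock elements, built of inverted repeats of GAA. The testis is kept cooler than the body, and its germ cells express chaperones of their own, such as Hspa2 and Hspa1l, without stress. In RNA of a whole organ, fewer cells of a type and less RNA per cell cannot be told apart.

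The signals of every array had the same 2% trimmed mean, 125, as deposited. Replicate arrays correlated across probe sets at r = 0.981 to 0.988 in the 4 groups. Prm1, a protamine of elongating spermatids, had signals of 9628 to 11483 on the 8 arrays, so the labelled tissue showed its markers. The summed signal of the 3 epididymal markers tested was 35.6 to 99.6 at 8 h and 39.1 to 85.2 in controls. The ratio of the 3′ to the 5′ beta-actin probe set, a measure of RNA and cDNA length, was 1.91 to 2.04 on the 8 h arrays and 2.14 to 2.92 on the controls, with no overlap. The same ratio for Gapdh was 0.899 to 0.997 against 1.04 to 1.32, also with no overlap. The summed signal of 8 peritubular myoid markers was 3722 to 4096 at 8 h and 3281 to 3554 in controls, which did not overlap either. Nor did that of the 3 red blood cell markers tested, which was 118 to 138 at 8 h and 82.3 to 111 in controls.

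At 8 h, 32 of 15762 genes tested (0.203%) differed from the controls with the strains pooled, by limma with a Benjamini-Hochberg adjusted p under 0.05. They were 21 genes that rose (0.133%) and 11 that fell (0.0698%). Inducible HSP70 led the rise: Hspa1b rose 48.0-fold and Hspa1a 23.7-fold on the scale of signal + 16. Egr1 followed with 7.86-fold, Fos with 4.55-fold, Cryab with 4.39-fold and Jun with 3.84-fold, and Hspb1 rose 2.94-fold. Of the 21 risen genes, 8 encode chaperones, and the other 13 include Egr1, Fos, Jun, Ccn1, Ier3 and Hmox1. The falls were smaller: 17 genes rose at least 2-fold and 0 fell by that much. Among the 17, Adamts1 and Rptoros were tested only because a heated group passed the filter on low signals. They are therefore no support for that count. With each array centred on its median in place of the deposited scaling, 33 genes rose and 3 fell. With arrays left out one at a time, 7 of the 8 moved the count of 32 by over 1.5 times. Leaving out an 8 h array of C57BL/6 gave 13 (replicate 1) or 11 (replicate 2), and one of AKR/N gave 17 (replicate 1) or 21 (replicate 2). Leaving out a C57BL/6 control gave 19 (replicate 1) or 18 (replicate 2), and leaving out the first AKR/N control gave 13. Of the 32 genes, 11 were called in all 8 of these fits, 10 in 1 of them, and Ppp1r15a, Rpia, Tmem19 and Uba7 in 0.

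**Figure D1:**
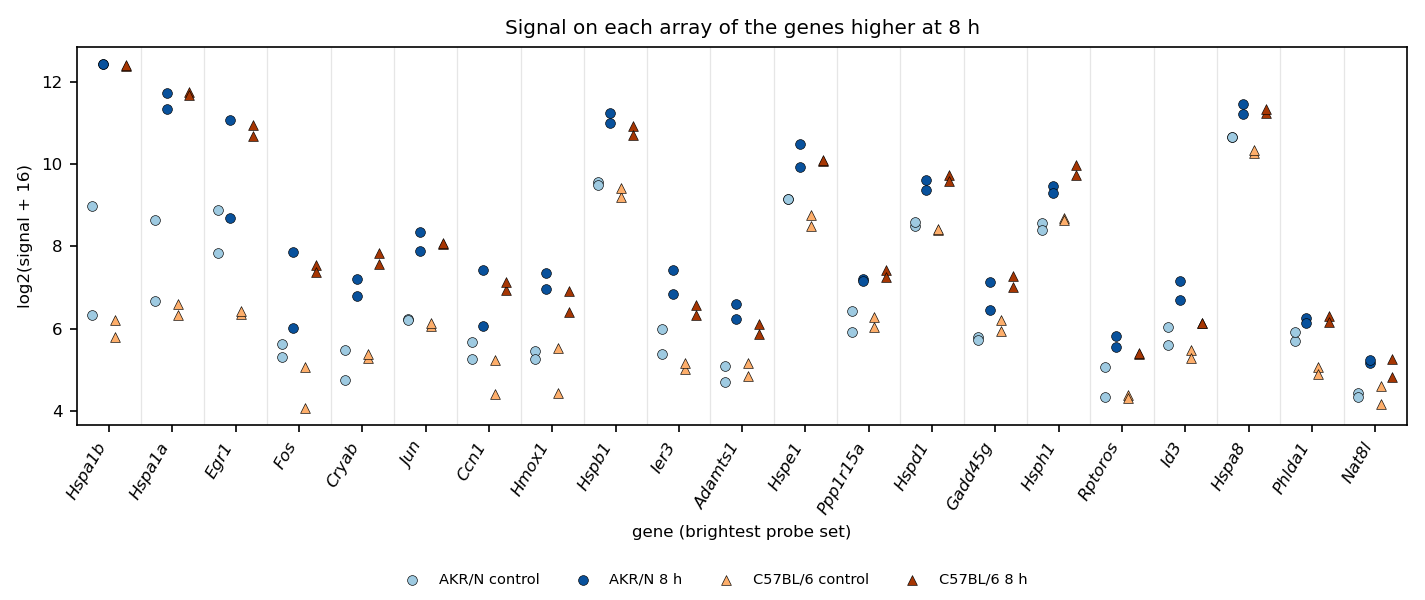
Each point is 1 array: log2(signal + 16), on the vertical axis, of the 21 genes called higher at 8 h, ordered from the largest pooled change; circles are AKR/N, triangles C57BL/6, pale symbols controls and dark symbols 8 h. The dark symbols lie above the pale ones of the same strain for 20 of the 21 genes; for Egr1, 1 AKR/N array at 8 h lies below 1 AKR/N control, and for Hspa1b and Hspa1a 1 AKR/N control lies well above the other controls.

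The promoters of the risen chaperone genes are shown first because they share a feature that the expression test did not use. The windows of 4 genes are printed 5′ to 3′ on the strand of the gene, from RefSeq on build GRCm38.p6, each of 250 bases before and 50 bases after the start of transcription. Capitals mark every match of the 2-unit heat shock element, GAANNTTC or TTCNNGAA, each of which is its own reverse complement, so that both strands are searched; overlapping matches run together. Hspb1 and Hspa1b were called in each strain separately; Hsph1 and Hspe1 were added after their values were seen. The Hspb1 window is chr5:135887669-135887968, plus strand; that of Hspa1b is chr17:34959189-34959488, minus strand; that of Hsph1 is chr5:149636287-149636586, minus strand; and that of Hspe1 is chr1:55087898-55088197, plus strand.
Hspb1: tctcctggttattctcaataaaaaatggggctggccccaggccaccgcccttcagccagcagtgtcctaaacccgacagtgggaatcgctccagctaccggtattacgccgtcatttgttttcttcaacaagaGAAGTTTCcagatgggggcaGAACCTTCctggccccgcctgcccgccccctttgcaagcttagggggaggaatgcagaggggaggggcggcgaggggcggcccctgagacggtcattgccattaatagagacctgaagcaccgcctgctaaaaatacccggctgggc
Hspa1b: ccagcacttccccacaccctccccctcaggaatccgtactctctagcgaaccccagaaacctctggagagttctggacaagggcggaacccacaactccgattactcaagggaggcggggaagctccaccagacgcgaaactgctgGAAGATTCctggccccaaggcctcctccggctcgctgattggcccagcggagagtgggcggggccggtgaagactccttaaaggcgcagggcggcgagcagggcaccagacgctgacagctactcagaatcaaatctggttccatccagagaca
Hsph1: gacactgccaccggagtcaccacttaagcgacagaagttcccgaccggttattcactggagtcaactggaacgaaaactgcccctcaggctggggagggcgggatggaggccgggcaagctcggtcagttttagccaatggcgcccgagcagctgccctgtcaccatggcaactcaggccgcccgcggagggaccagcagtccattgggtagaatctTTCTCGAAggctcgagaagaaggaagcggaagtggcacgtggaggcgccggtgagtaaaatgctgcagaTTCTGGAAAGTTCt
Hspe1: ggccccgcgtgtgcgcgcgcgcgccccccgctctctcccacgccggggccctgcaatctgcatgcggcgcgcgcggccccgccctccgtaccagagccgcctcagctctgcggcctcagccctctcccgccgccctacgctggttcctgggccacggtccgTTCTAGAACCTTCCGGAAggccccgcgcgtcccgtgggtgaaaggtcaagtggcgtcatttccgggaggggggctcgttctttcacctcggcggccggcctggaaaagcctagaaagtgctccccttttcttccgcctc

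The 2 matches in the Hspb1 window start 117 and 97 bases before the start of transcription, and the match of Hspa1b starts 104 bases before it. Those of Hsph1 start 33 bases before the start of transcription and 36 and 41 bases after it. In the Hspe1 window 3 overlapping matches, which start 89, 84 and 79 bases before the start site, form a run of alternating repeats. The Hspe1 window faces a window of Hspd1 and shares 285 of its bases, so the same run stands before both chaperonin genes. Another Hspd1 window, which shares 4 bases with that of Hspe1, held 0 matches. The windows of Hspa1a and Hspa1b were 98.7% identical position by position. RefSeq promoters were at hand for 6 of the 8 risen chaperone genes, and the 2-unit element was found in all 6: Hspa1a, Hspa1b, Hspb1, Hspd1, Hspe1 and Hsph1. It was found in 2 of 9 other risen genes, Jun and Ccn1, and in 2 of 10 fallen genes, Atf5 and Uba7. It was found in 15 of 51 chaperone genes that were tested and not called (29.4%), and in 14.8% of all genes tested with a promoter. The 3-unit element, in which the repeat occurs 3 times in alternating direction at the same spacing, stood in 3 of the 6 risen chaperone genes, Hspd1, Hspe1 and Hsph1, and in 0.641% of all genes tested. It also stood in 2 of the 51 chaperone genes that were tested and not called (3.92%). In Hsph1 it lay after the start of transcription. Hspd1 and Hspe1 share their run and the windows of Hspa1a and Hspa1b are nearly the same. The counts among the 6 genes thus hold the same sequence more than once. A match describes letters in a window and shows no binding.

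Inducible HSP70 gave the largest changes of the comparison. Hspa1b, a stress-inducible cytosolic HSP70, had control signals of 64.7 and 493 in AKR/N and of 58.1 and 39.1 in C57BL/6, and signals at 8 h of 5516 and 5515 in AKR/N and of 5309 and 5453 in C57BL/6. The 8 h arrays of both strains lay at one level, while AKR/N control replicate 2 stood above the other 3 controls. The pooled change was 5.58 ± 0.47 (SE, 4 arrays against 4) with an adjusted p of 6.97e-05 by limma. Its size rested on the AKR/N controls: the fold of 48.0 became 76.1 without AKR/N control replicate 2 and 30.3 without AKR/N control replicate 1. Hspa1a, its near-identical neighbour, had control signals of 85.2 and 383 in AKR/N and 80.8 and 64.9 in C57BL/6. Its signals at 8 h were 3359 and 2572 in AKR/N and 3467 and 3286 in C57BL/6, a pooled change of 4.57 ± 0.47 (adjusted p = 0.000612, limma). The same AKR/N control was again the highest control. Because the transcripts of Hspa1a and Hspa1b are nearly the same, their probe sets may detect both genes and the 2 changes are not separate evidence.

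The constitutive HSP70 and its exchange factor rose less, from higher control signals. Hspa8, the HSC70 of unstressed cells, went from 1612 and 1615 to 2389 and 2821 in AKR/N and from 1213 and 1287 to 2395 and 2566 in C57BL/6. Its pooled change was 0.83 ± 0.08 (SE), and 2 of its other probe sets rose too, by 0.77 and 2.10. The remaining one had 0.72 and was not called. Hsph1, an HSP110 that releases ADP from HSP70, went from 365 and 324 to 691 and 612 in AKR/N and from 399 and 384 to 837 and 993 in C57BL/6. The change of Hsph1 was 1.04 ± 0.12, and on its dimmer probe set it was 1.87. For both genes every 8 h array lay above every control of the same strain. The other 4 members of the HSP70 and HSP110 list, Hspa4, Hspa9, Hspa13 and Hspa14, had changes between -0.06 and 0.03 and were not called. Thus 4 of the 8 members of this list were called, beside 0.203% of all genes tested.

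Of 6 small heat shock proteins tested, 2 rose, beside 0.133% of all genes tested. Hspb1 (HSP25 of the mouse) went from 739 and 705 to 2051 and 2413 in AKR/N and from 576 and 666 to 1932 and 1673 in C57BL/6. This was the gene with the smallest p of the comparison: a change of 1.56 ± 0.11 (SE) with an adjusted p of 1.59e-05 by limma, 1.60 in AKR/N and 1.51 in C57BL/6. Cryab, αB-crystallin, went from 11.1 and 28.3 to 133 and 95.6 in AKR/N and from 22.9 and 25.8 to 174 and 212 in C57BL/6. Its change was 2.13 ± 0.16 (adjusted p = 3.94e-05, limma), from control signals near the bottom of the measured range. The other probe sets of Cryab had 1.87 and, with mean signals of 8.14 in controls and 11.7 at 8 h, 0.17. In each strain the 8 h arrays of both genes stood apart from the controls. Of the other 4 members tested, Hspb8 had 0.50 and lay above the controls in both strains without being called, and Hspb2, Hspb6 and Hspb7 had changes between -0.01 and 0.00. On its other probe sets Hspb8 had 0.70 and -0.40, so its sign turned with the probe set.

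The mitochondrial chaperonin rose as a pair. Hspd1 (HSP60), the subunit of the folding chamber, went from 347 and 371 to 649 and 771 in AKR/N and from 324 and 328 to 834 and 761 in C57BL/6, a pooled change of 1.10 ± 0.12 (SE, adjusted p = 0.000845, limma). Hspe1 (HSP10), its lid, went from 556 and 550 to 955 and 1435 in AKR/N and from 419 and 348 to 1064 and 1077 in C57BL/6, a change of 1.25 ± 0.13 (adjusted p = 0.000725). No 8 h array of either gene overlapped the controls of its strain. The 9 subunits of the cytosolic chaperonin tested (Tcp1 and the Cct genes) had changes between -0.07 and 0.08, and 0 of them were called. With 0.203% of all genes called, 9 genes mostly hold no call.

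The helpers of HSP70 and HSP90 moved little on their brightest probe sets. None of 10 DNAJ genes, 10 genes of HSP90 and its partners and 10 other co-chaperones was called, with list medians of 0.04, 0.14 and 0.10 beside -0.03 for all genes tested. With 0.203% of all genes called, lists of this size mostly hold no call. Dnajb1, the DNAJ partner best known from heat shock, went from 2302 and 2627 to 3328 and 3329 in AKR/N and from 2670 and 3057 to 3456 and 3319 in C57BL/6. Its change of 0.34 had an adjusted p of 0.181 by limma, although the 8 h arrays of Dnajb1 lay above the controls in both strains. Bag3, which couples HSP70 to autophagy, likewise did not overlap its controls: it went from 214 and 227 to 418 and 386 in AKR/N and from 244 and 281 to 412 and 417 in C57BL/6 (0.73, adjusted p = 0.24). Hsp90aa1, the inducible HSP90, had 6220 to 6894 in controls and 6475 to 6672 at 8 h on its brightest probe set, a change of 0.00 with a 95% interval of -0.15 to 0.15. Its other probe sets above the filter had 0.19, 0.27 and, at low signal, -0.13. The values 0.19 and 0.27 lie outside that interval, and the probe set with 0.27 had 0.70 in AKR/N and -0.16 in C57BL/6. The testis-enriched Hspa2 and Hspa1l had changes of -0.24 and 0.13 and were not called, as were all 14 members of the testis-enriched chaperone list (median 0.08).

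Dnaja1 shows how far the choice of probe set matters. Its brightest probe set had a change of 0.29 and was not called (adjusted p = 0.197, limma). A dimmer probe set of Dnaja1 went from 299 and 308 to 584 and 670 in AKR/N and from 257 and 275 to 724 and 729 in C57BL/6, a change of 1.20, and another also rose by 1.20. When every probe set was tested singly, an alternative chosen after the data had been seen, 22 genes were called only through a dimmer probe set, 15 up and 7 down. Among the 15 were the chaperone genes Dnaja4 (1.47, and 0.10 on its brightest) and Hspa9 (1.21, and -0.04). Socs3, Klf6, Cxcl1 and Psma6 were also among them. For Klf6, Cxcl1 and Psma6, and for Zc3h12c and Arf3 of the same 15, every control signal of the called probe set lay under the filter's threshold of 17.5. These probe sets were tested only because a heated group was above it, so they are no support for the counts of rises. In the test of every probe set 49 rose (0.143%), these among them, and 26 fell (0.076%) of 34195. Of all probe sets, 10 (0.0292%) were called in both strains. These 10 were 3 probe sets of Hspa1b, 2 each of Cryab and Hspb1, 1 each of Hsph1 and Dnaja1, and 1 without a gene name. The dimmer of the 2 Cryab probe sets also had control means under that threshold in both strains.

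Immediate early genes, which are transcribed within minutes of many stimuli without new protein synthesis, formed the second group. They were tested in a joint list with inflammatory genes. Of 29 members tested on this list, 4 rose (Fos, Jun, Egr1 and Ier3), beside 0.133% of all genes tested. None fell, and the median change was 0.36. The inflammatory members include Il1b (-0.31), Tnf (0.34), Ccl2 (0.08), Cxcl1 (-0.04), Cxcl10 (0.09) and Ptgs2 (0.36), none called on the brightest probe set. The 8 h arrays lay above both controls in each strain for 11 of the 29 (37.9%, beside 5.57% of all genes tested), and below them for 2. Jun, a subunit of the AP-1 transcription factor, was the most even: it went from 59.3 and 57.7 to 308 and 222 in AKR/N and from 50.9 and 53.9 to 252 and 256 in C57BL/6 (1.94 ± 0.23 SE, adjusted p = 0.00165 by limma). Fos, its partner, had control signals of 33.3 and 23.6 in AKR/N and 17.6 and 0.799 in C57BL/6, and signals at 8 h of 218, 48.9, 170 and 151 in the same order of strains. The lowest of these 4 was AKR/N 8 h replicate 2. The change of Fos was 2.19 ± 0.40 with an adjusted p of 0.049. Egr1, a zinc finger transcription factor, had 461 and 214 in AKR/N controls, 2157 and 395 in AKR/N at 8 h, 66.0 and 69.5 in C57BL/6 controls and 1970 and 1637 in C57BL/6 at 8 h. It was the only called gene of the 32 whose groups overlapped within a strain, through AKR/N 8 h replicate 2, and its change was 2.97 ± 0.51 (adjusted p = 0.0323). The calls of Fos and Egr1 were kept in 1 of the 8 fits that left out an array, without AKR/N 8 h replicate 2. In the other 7 the adjusted p by limma was up to 0.16 for Fos and up to 0.126 for Egr1. The fold of Egr1 became 11.9 without that array and 5.18 without AKR/N 8 h replicate 1.

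Ier3, an early response gene tied to cell survival, went from 47.9 and 25.5 to 98.9 and 155 in AKR/N and from 16.2 and 20.1 to 79.5 and 64.2 in C57BL/6, a change of 1.40 ± 0.18 (SE, adjusted p = 0.0027, limma). The next 3 members of the list came close and were not called: Atf3 with 2.28 (adjusted p = 0.0566), Socs3 with 2.08 (0.06) and Dusp1 with 1.004 (0.0543). Atf3, a stress-induced repressor, was at 2.08 and 5.84 in AKR/N controls and 2.91 and 8.19 in C57BL/6 controls, and reached 84.3 and 48.0 in AKR/N and 96.9 and 122 in C57BL/6. None of these 3 genes overlapped its controls in either strain. Nfkbia had -0.80 and Klf2 -0.53, and neither was called.

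Ccn1, a secreted matrix protein that is itself an early response gene, had 22.5 and 35.1 in AKR/N controls and 156 and 51.1 at 8 h, and 21.5 and 5.19 in C57BL/6 controls and 107 and 126 at 8 h (1.75 ± 0.28 SE, adjusted p = 0.0244 by limma). On its other probe sets above the filter, which are dim, the change was 0.87 and 0.20. The last had -0.25 in AKR/N and 0.66 in C57BL/6. AKR/N 8 h replicate 2, which was low for Egr1 and Fos, was low for Ccn1 too. Among stress enzymes, Hmox1, which breaks down heme, went from 27.9 and 22.1 to 110 and 147 in AKR/N and from 5.65 and 29.8 to 106 and 68.0 in C57BL/6, a change of 1.74 ± 0.28 (adjusted p = 0.0244). Hmox1 was the single one of 17 antioxidant and metal response genes called, beside 0.203% of all genes tested, and the list's median was 0.11. Ppp1r15a (GADD34), which directs the removal of phosphate from the translation factor eIF2α, had 44.0 to 70.1 over the 4 controls and 128 to 154 over the 4 arrays at 8 h, a change of 1.10. It was the single one of 23 members of the unfolded protein response list called, beside the same 0.203% of all genes, with a list median of 0.06. The call of Ppp1r15a was lost in each of the 8 fits that left out an array and with the beta-actin covariate (adjusted p up to 0.147, limma). That of Hmox1 was kept in 1 of the 8, without C57BL/6 control replicate 2. Hspa5, the chaperone of the endoplasmic reticulum, had 0.20 and Ddit3 0.06.

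The remaining 6 risen genes had changes of 0.74 to 1.26. Adamts1, a secreted protease of the matrix, had 10.2 to 19.8 in controls and 42.8 to 80.9 at 8 h, a change of 1.26. Gadd45g, a stress-induced cell cycle inhibitor, rose by 1.05 and Id3, an inhibitor of helix-loop-helix transcription factors, by 0.93. Phlda1 rose by 0.83, with 35.5 and 44.3 in AKR/N controls against 60.9 and 54.9 at 8 h, and 17.7 and 13.7 in C57BL/6 controls against 63.6 and 55.1. Rptoros, an RNA from the strand opposite Rptor, rose by 1.02 to signals of 25.6 to 40.3, and Nat8l, an acetyltransferase, by 0.74 to 12.3 to 22.6. The signals of Rptoros and Nat8l at 8 h were near the filter's threshold of 17.5. Adamts1, Rptoros and Nat8l had control means under the threshold in both strains. They were tested only because a heated group was above it, so they are no support for the count of rises, which is 18 without them.

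The 11 genes that fell belong to none of the pathway lists. Each lay below both controls on both 8 h arrays of each strain (8.29% of all genes tested did so). The calls were made on these same values, so this is no separate evidence. Aym1, named as an activator of meiotic promoters, had 368 and 276 in AKR/N controls and 174 and 175 at 8 h, and 443 and 378 in C57BL/6 controls and 195 and 181 at 8 h (-0.94 ± 0.17 SE, adjusted p = 0.045 by limma). The uncharacterised gene 1700024J04Rik went from 589 and 735 to 412 and 322 in AKR/N and from 840 and 891 to 490 and 407 in C57BL/6. Its change of -0.88 ± 0.12 had the smallest adjusted p of the falls, 0.00784. Rpia, an enzyme of the pentose phosphate pathway, went from 164 and 172 to 95.6 and 103 in AKR/N and from 263 and 262 to 198 and 207 in C57BL/6, a change of -0.51. Pptc7, a phosphatase of mitochondria, had -0.57, Kcnk6, a potassium channel, -0.60, and Atf5, a transcription factor of stress responses, -0.61.

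For the 5 falls that had other probe sets of the gene, these fell by less or had changes above 0. The other falls, 1700024J04Rik, Atf5, Aym1, Kcnk6, Pptc7 and Rpia, had a single probe set each and could not be checked in this way. Malat1, a nuclear long noncoding RNA, went from 210 and 144 to 88.5 and 77.9 in AKR/N and from 148 and 145 to 68.3 and 67.5 in C57BL/6 on its brightest probe set, a change of -0.95 ± 0.16 (SE). On 5 of its other 6 probe sets the change was above 0, from 0.20 to 0.76, and the mean of its probe sets had a change of 0.09, so the direction for Malat1 turned with that choice. Nr2f2, a nuclear receptor of interstitial cells, fell by 0.65, with -0.26, -0.13, -0.29 and 0.01 on its other probe sets above the filter. Tmem19 (-0.59) had -0.14, -0.25, -0.09 and 0.33 on its others. Uba7, the activating enzyme for ISG15, had 27.6 to 38.9 in controls and 6.29 to 11.6 at 8 h (-0.99), and -0.38 on another probe set. Themis, a gene of T cell selection, had -0.64 and 0.24 on another; its C57BL/6 signals all lay under the filter's threshold. With the beta-actin ratio of each array as a covariate, an alternative chosen after the data had been seen, 0 of the 11 falls and 12 of the 21 rises were called. These 12 were all 8 chaperone genes, with changes of 0.81 (Hspa8) to 5.62 (Hspa1b), and Egr1, Ier3, Jun and Hmox1. The 11 falls all stayed below 0 in that fit, with changes of -1.19 to -0.42 (median -0.52) in place of -0.99 to -0.51 (median -0.64). The smallest adjusted p among them was 0.0579 by limma, for 1700024J04Rik, whose change was -1.01. Counts of genes that fell were 0 without C57BL/6 8 h replicate 2, and 1 without either C57BL/6 8 h replicate 1 or AKR/N control replicate 1.

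**Figure D2:**
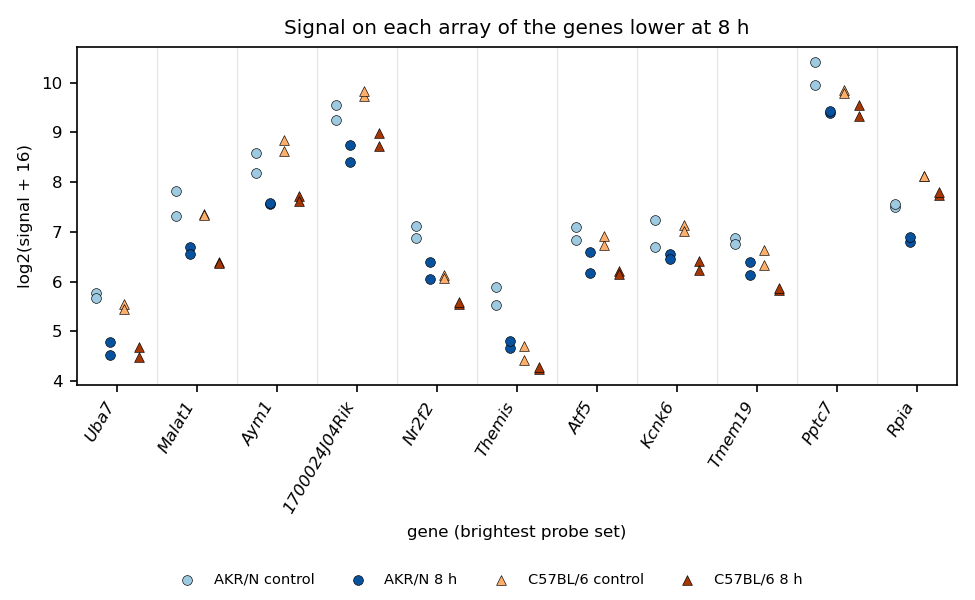
Each point is 1 array: log2(signal + 16), on the vertical axis, of the 11 genes called lower at 8 h, ordered from the largest fall; circles are AKR/N, triangles C57BL/6, pale symbols controls and dark symbols 8 h. In each strain the dark symbols lie below the pale ones for every gene, and for Themis and Nr2f2 the 2 strains also differ in level.

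Which genes moved in both strains was asked gene by gene, with the larger of the 2 within-strain p-values. The strains' means share no array, but both p-values use one estimate of spread from all 20 arrays. By limma, 3 genes were called (0.019%), all higher: Hspb1 (adjusted p = 0.00173), Cryab (0.0107) and Hspa1b (0.0266). In AKR/N alone 6 genes were called (0.0381%): Hspa1b (4.77), Cryab (1.90), Hspb1 (1.60) and Adamts1 (1.52, from controls under the filter's threshold) rose (0.0254%), and Themis (-0.97) and Zscan29 (-1.12) fell (0.0127%). Among the 14 genes called in C57BL/6 alone, all higher (0.0888%), were Hspa1b (6.40), Hspa1a (5.26), Egr1 (4.44), Cryab, Jun, Hspb1, Hspe1, Hspd1, Hsph1, Hspa8 and Phlda1. In C57BL/6, 0 genes were called lower by limma, and 1209 (7.67%) had an unadjusted p under 0.05 in either direction. At an unadjusted p under 0.05, 210 genes moved the same way in both strains (1.33%), and 30 of the 32 genes of the pooled comparison were among them: 19 that rose, beside 0.533% of all genes, and 11 that fell, beside 0.799%. All 32 had the same sign in both strains, and 31 of the 32 lay beyond both controls in each. The 32 were called on the mean of the same 2 strain changes. These shares of the 32 therefore largely follow from the calls and are no separate evidence that the strains agree.

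These counts rested on single arrays. The 3 genes of both strains became 1 when the first AKR/N array at 8 h or the first AKR/N control was dropped. The 6 of AKR/N also became 1 without either of these arrays, and 2 without the second AKR/N array or any single C57BL/6 array at 8 h. The 14 of C57BL/6 became 4 or 3 without its first or second 8 h array, and 3 or 4 without its first or second control. Across all genes tested the changes in the strains correlated at r = 0.25 (rho = 0.20), and at 0.19 without the called genes. This is a description across 15762 genes, which are not independent replicates.

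**Figure D3:**
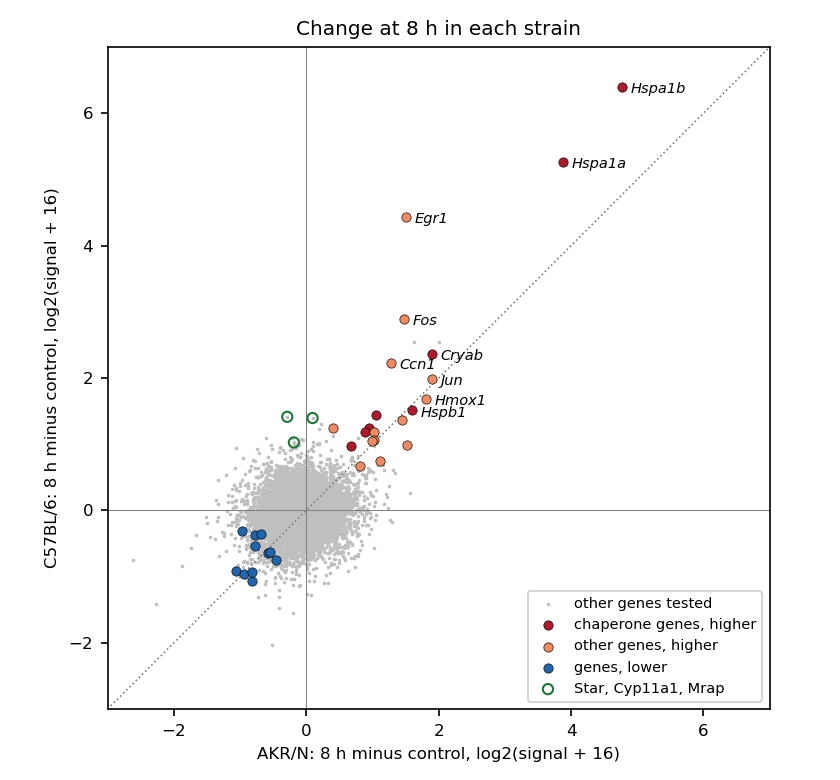
Each point is 1 gene: the change at 8 h in AKR/N on the horizontal axis and in C57BL/6 on the vertical axis, both as differences of log2(signal + 16); the dotted line marks equal changes. The 32 called genes lie to the upper right or the lower left of the origin, Egr1 and Hspa1b lie above the line (1.51 and 4.44, 4.77 and 6.40), and Star, Cyp11a1 and Mrap lie near 0 in AKR/N and above 1 in C57BL/6.

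The strains were then compared directly, as the difference of their changes at 8 h. By limma 0 of 15762 genes were called, with 892 (5.66%) at an unadjusted p under 0.05 and a smallest adjusted p of 0.507. Of the 21 risen genes, 15 had the larger change in C57BL/6. For Hspa1b the AKR/N change minus the C57BL/6 change was -1.63, with a 95% interval of -3.63 to 0.37, and for Hspb1 it was 0.09, with an interval of -0.37 to 0.55. For Egr1 the difference was -2.92 (-5.12 to -0.73) and for Phlda1 -0.85 (-1.44 to -0.25). For Themis no size is given, since all 4 of its C57BL/6 signals, 2.89 to 10.3, lay under the filter's threshold of 17.5. These were the 3 called genes with an unadjusted p under 0.05 for the difference, and none passed after adjustment (adjusted p from 0.715). Over the 32 genes the interval reached a median of 0.64 to either side of the estimate, so differences below that size were mostly not measurable here.

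Genes of steroid synthesis were among the calls of C57BL/6 alone. Star, which moves cholesterol into mitochondria, had 87.0 and 75.7 in C57BL/6 controls and 234 and 252 at 8 h, against 304 and 301 in AKR/N controls and 246 and 245 at 8 h. Its change was 1.41 in C57BL/6 (adjusted p = 0.0239, limma) and -0.29 in AKR/N, so C57BL/6 testes at 8 h lay below the AKR/N controls and near the AKR/N arrays at 8 h. Cyp11a1, which cuts the cholesterol side chain, had 257 and 265 in C57BL/6 controls and 592 and 510 at 8 h, against 438 and 483 in AKR/N controls and 431 and 375 at 8 h, a change of 1.03 in C57BL/6 and -0.19 in AKR/N. Its other probe sets above the filter, which are dim, had -0.14 and -0.34 in C57BL/6 and -0.21 and -1.02 in AKR/N, so the C57BL/6 sign for Cyp11a1 turned with the probe set. Mrap, an accessory protein of the ACTH receptor, went from 44.1 and 24.5 to 99.5 and 130 in C57BL/6 (1.40) and from 104 and 98.7 to 112 and 106 in AKR/N (0.10). The differences between the strains were -1.70 for Star (95% interval -2.36 to -1.04) and -1.21 for Cyp11a1 (-1.67 to -0.75), and neither passed after adjustment (adjusted p = 0.507). Both passed in limma with a trended, robust variance prior (adjusted p = 0.0423). On the other probe sets of Star the changes in AKR/N were 0.46 and 0.48 and in C57BL/6 1.23 and 1.33, so the AKR/N sign for Star turned with the probe set.

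The 10 steroid synthesis genes tested had a median change of 0.03 in AKR/N and 0.35 in C57BL/6, and the 7 Leydig cell markers tested, which share most of these genes, -0.19 and 0.74. None was called in the pooled comparison, where 0.203% of all genes tested were called. The summed signal of the Leydig markers went from 3557 and 3279 in C57BL/6 controls to 5450 and 5116 at 8 h, with no overlap, and from 5697 and 5786 to 5685 and 5323 in AKR/N. It thus moved with Star, Cyp11a1 and Mrap in C57BL/6. Star and Cyp11a1 are themselves in the sum, so this is partly built in. Of the 7 markers, Hsd17b3, which makes testosterone, had 0.16 in C57BL/6 and Nr5a1, a regulator of steroid genes, -0.17. The part of a different share of Leydig cell RNA in these values was not tested.

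The 8 h genes were followed through the later times, which were compared with the same controls, so the values are given side by side and are not separate evidence. The 21 risen genes had a median change of 1.26 at 8 h, 1.88 at 10 h, 1.67 at 12 h and 0.94 at 24 h. They were called higher in 20, 20 and 16 cases at 10, 12 and 24 h, where 7.59%, 13.8% and 24.1% of all genes were called higher. Differences between the heated times were not tested. The pooled change of inducible HSP70 was largest at 8 h: Hspa1b had 5.58, 5.24, 4.64 and 0.94 at the 4 times, and Hspa1a 4.57, 4.33, 3.55 and 0.50. Fos had 2.19, 2.09, 1.42 and 0.95, and Jun 1.94, 1.88, 1.26 and 0.13. The chaperonin and the small heat shock proteins were higher at 12 h than at 8 h: Hspd1 had 1.10, 2.28, 2.67 and 2.004, Hspe1 1.25, 2.03, 2.73 and 1.79, Hspb1 1.56, 2.10, 2.58 and 1.79, and Cryab 2.13, 2.63, 3.29 and 3.002. Hmox1 went from 1.74 at 8 h to 3.47 at 12 h and 1.20 at 24 h. At 24 h the strains stood apart for Hspa1b, with -0.86 in AKR/N and 2.74 in C57BL/6, a difference that was not tested here.

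The 11 fallen genes had medians of -0.64, -0.32, 0.07 and -0.18 at 8, 10, 12 and 24 h. At 10, 12 and 24 h, 5, 2 and 5 of them were called lower, where 7.77%, 13.2% and 19.7% of all genes were called lower, and 0, 1 and 4 were called higher. Aym1 stayed below its controls, with -0.94, -1.27, -1.20 and -1.40. Nr2f2 had -0.65 at 8 h and 0.57 at 24 h, and Malat1 -0.95 and 1.20. Cdkn1a, the cell cycle inhibitor and p53 target, had 0.45 at 8 h (not called) and 1.85, 2.96 and 1.52 afterwards, so its largest change came after the first time point.

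**Figure D4:**
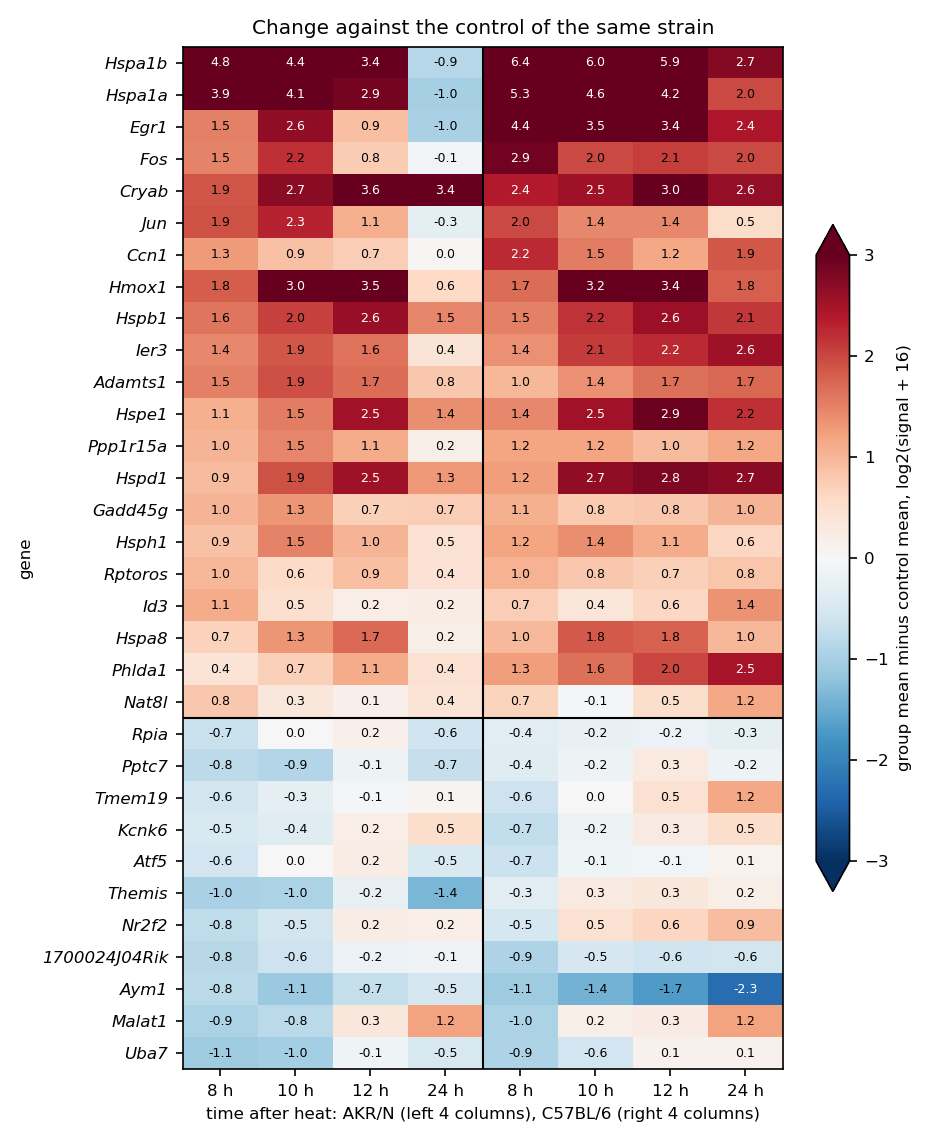
Each cell is the mean of 2 arrays minus the mean of the 2 controls of the same strain on the scale log2(signal + 16), for the 32 genes called at 8 h (rows) at 8, 10, 12 and 24 h in AKR/N and in C57BL/6 (columns); red is higher and blue lower, with colours saturated beyond 3. Hspa1b, Hspa1a, Fos and Jun are strongest at 8 or 10 h and return toward or below the control in AKR/N by 24 h, while Hspd1, Hspe1, Hspb1 and Cryab are stronger at 12 h than at 8 h in both strains.

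Other programmes showed few or no calls at 8 h, and with 0.203% of all genes called, lists of this size mostly hold none. Beside the 32 genes over all 15762, 0 were called of 20 p53 targets (median -0.06), 26 genes of the apoptosis machinery (-0.07), 18 of the hypoxia and glycolysis response (0.03), 15 of cholesterol synthesis (0.10) and 17 of the proteasome and ubiquitin (0.07). The same held for 22 genes of division (-0.01), 20 of meiotic recombination and synapsis (0.01) and 4 heat shock factor genes (-0.23). Among the largest changes in these lists were 0.79 for Gadd45b, a stress gene among the p53 targets (adjusted p = 0.0588 by limma), 0.79 for Mvk and 0.67 for Msmo1 of cholesterol synthesis, and 0.50 for Sqstm1, the autophagy receptor p62. On other probe sets above the filter Gadd45b had 0.21 and 0.55, Mvk 0.34 and Msmo1 0.18. Cirbp, a cold-inducible RNA-binding protein, had -0.14 (adjusted p = 0.62). Over all genes the 95% interval of the pooled change reached a median of 0.30 to either side, so smaller shifts of single genes were mostly not measurable with 4 arrays against 4.

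**Figure D5:**
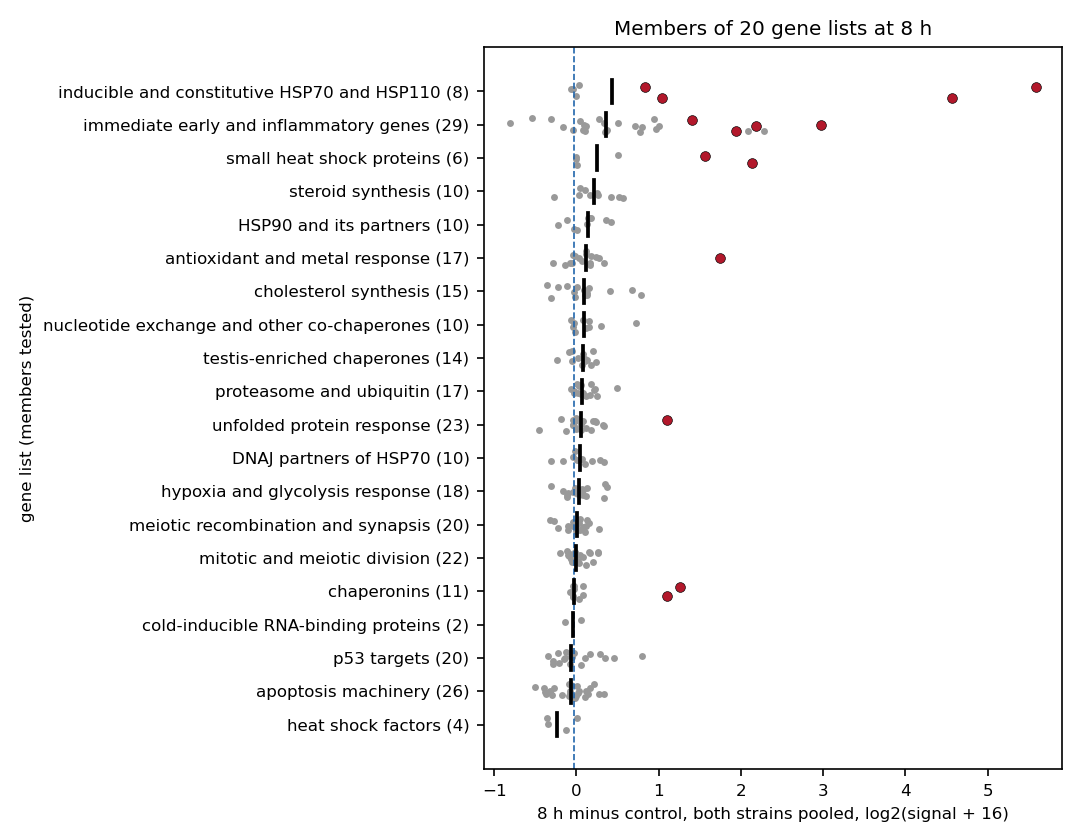
Each point is 1 gene tested: its pooled change at 8 h, as a difference of log2(signal + 16), on the horizontal axis, for 20 gene lists on the vertical axis; red points are called genes, black bars list medians and the dashed line the median of all genes, -0.03. The called genes are 8 chaperones, 4 immediate early genes, Hmox1 and Ppp1r15a, and the other lists are centred between -0.23 and 0.21.

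Markers of the cell types of the testis were tested in the same way, and 0 members of the 13 marker lists were called. Of all genes tested 0.203% were called, a share at which lists of this size mostly hold no call. The count of 0 therefore does not show that the cell types kept their shares. The 13 spermatogonial markers had a median change of -0.10, the 15 of pachytene spermatocytes -0.03, the 16 of round spermatids 0.11, the 14 of elongating spermatids 0.06 and the 18 of Sertoli cells -0.03. Piwil1 and Mybl1, of spermatocytes, had -0.46 and -0.50 and lay below the controls in both strains without being called. On its other probe set Mybl1 had -0.23, with 0.05 in AKR/N and -0.50 in C57BL/6. The 8 peritubular myoid markers had a median of 0.21, with 4 above the controls in each strain, led by Tagln (0.70, adjusted p = 0.0983 by limma), and 1 below them, Des (-0.78). The 14 macrophage and leukocyte markers had 0.06 and the 5 neutrophil markers -0.15. The myoid and red blood cell sums moved with the risen genes at 8 h, and their part in them was not tested.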

How the data were processed

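Intensities of probe sets on Affymetrix mouse arrays were used as deposited by the authors, scaled so that the mean without the top and bottom 2% is 125 on each of the 20 arrays; which software made them is not stated in the labels. The number of arrays limits the precision. Genes came from the platform annotation, with symbols updated through gene IDs: of 45037 probe sets other than controls, 34945 had 1 gene, 932 several and 9160 none. The brightest probe set of each gene was kept and log2(signal + 16) was taken. Genes whose highest group mean reached the 40th percentile of mean log2 signal (17.5 as a signal) were tested, 15762 of 18193. limma 3.58.1 in R 4.3.3 fitted 1 mean for each of 10 groups over all 20 arrays. Adjusted p-values (Benjamini-Hochberg) cover every gene tested, with calls at 0.05. The script was tested on simulated data. Samples were grouped by strain and time from the labels. Replicate numbers did not pair the samples: deviations of same-numbered arrays correlated at r = -0.03 to 0.01 over 6 pairs of groups.

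The genes, lists and tests were chosen with earlier results of these data known. Genes named are, per direction, up to 15 called genes with the largest change that lie beyond both controls in each strain; up to 4 genes of each list with the smallest adjusted p; up to 8 with the smallest p of the strain difference; up to 5 per direction called in each strain; genes called in both strains; and a fixed set of chaperone, steroid and stress genes. Genes named outside this rule (Egr1 among the called genes, further list members, genes called on dimmer probe sets) were chosen after their values were seen. Promoters came from RefSeq on GRCm38.p6, matched by symbol. Alternatives varied the pseudocount, filter, scaling, arrays fitted, replicate block, variance prior, RNA quality covariate and probe-set rule. Figures were drawn with matplotlib 3.10.9.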

Additional observations from a re-analysis of the deposited data

Results flagged for a closer look

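Probe sets that the platform annotation pairs with no gene lie outside the comparison of genes. Tested singly by limma, 4 of the 5431 that passed the filter rose at 8 h with the strains pooled (adjusted p under 0.05 over 34195 probe sets) and 11 fell. Those shown are the 2 of lowest control signal among the risen and the 2 of largest change among the fallen, chosen after their values were seen. Of those that rose, 1444481_at went from 8.80 and 7.78 to 50.9 and 36.6 in AKR/N and from 19.2 and 7.93 to 36.1 and 43.5 in C57BL/6, a change of 1.11; its control means lay under the filter's threshold of 17.5 in both strains, so it was tested only through heated groups. The probe set 1457815_at went from 24.9 and 36.1 to 52.2 and 47.0 in AKR/N and from 25.4 and 24.1 to 85.9 and 80.9 in C57BL/6, a change of 0.90. Of those that fell, 1433209_at was called in both strains: it went from 75.4 and 62.0 to 18.3 and 20.7 in AKR/N and from 85.9 and 78.6 to 21.7 and 16.1 in C57BL/6, a change of -1.37. The probe set 1441597_at fell from 389 and 266 to 124 and 103 in AKR/N and from 236 and 229 to 135 and 112 in C57BL/6, a change of -1.11. Which transcripts these probe sets detect was not analysed here.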

How the results depend on the processing

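The main counts were 32 genes with the strains pooled, 3 in both strains, 6 in AKR/N, 14 in C57BL/6 and 0 for the strain difference. A pseudocount of 64 gave 81, 9 and 19 for the first 3 of these, and a pseudocount of 1 gave 3 in AKR/N. A filter at the 60th percentile gave 65 pooled and 15 in AKR/N. Centring on the median gave 8 in both strains and 14 in AKR/N. Fitting only the 8 arrays gave 20 pooled, 0 in both strains (303 at an unadjusted p under 0.05 by limma) and 0 in AKR/N (2014). A trended, robust variance prior gave 87 pooled, 8 in both strains, 23 in AKR/N, 28 in C57BL/6 and 2 for the strain difference. The next 2 alternatives were chosen after the data had been seen: the beta-actin ratio as a covariate gave 15 pooled, 1 in both strains and 2 in AKR/N, and testing every probe set gave 75, 10, 24 and 30. Leaving out each array in turn gave 11 to 39 pooled, 1 to 3 in both strains, 1 to 8 in AKR/N, 3 to 15 in C57BL/6 and 0 each time for the strain difference. Malat1 turned to 0.0881 with the mean of its probe sets. With the replicate number as a block, 30 genes were called pooled (26 of the 32), 3 in both strains, 4 in AKR/N, 12 in C57BL/6 and 0 for the strain difference. Of the 32 genes, 9 were called in all 8 fits without an array and in the 12 other settings that kept 1 value for each gene and the filter over all groups: Cryab, Hspa1a, Hspa1b, Hspa8, Hspb1, Hspd1, Hspe1, Hsph1 and Jun. The causes of these shifts were not tested. Signal over background limits the dim genes Nat8l, Rptoros, Themis and Uba7.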

Other observations

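On dimmer probe sets, 7 genes fell at 8 h that their brightest probe set did not call. Akr1cl went from 68.6 and 34.7 to 2.51 and 14.0 in AKR/N and from 64.8 and 46.1 to 0.56 and 6.09 in C57BL/6, a change of -1.68, against 0.28 on its brightest probe set. Rnf225 went from 53.1 and 39.2 to 3.08 and 3.83 in AKR/N and from 44.1 and 27.8 to 8.19 and 13.9 in C57BL/6, a change of -1.30, against 0.08 on its brightest. Pabpn1, which binds poly(A) tails, had -0.80 on the dimmer probe set and -0.07 on the brightest. With the beta-actin ratio as a covariate, Atf3, Maff and Socs3 were called higher with the strains pooled, with changes of 3.20, 1.5005 and 2.97 (adjusted p of 0.0496, 0.0247 and 0.0496 by limma), and they were not called without it. The control signals of Atf3 lay under the filter's threshold in both strains, so it was tested only through heated groups.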
